A study of Mus musculus with 4 samples.

Results

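Lyz2, Cst3, Csf1r, Itgax, Cd68, Adgre1, Fcgr3, Ctss and C1qa are genes by which macrophages, monocytes and dendritic cells are usually recognised. The 9 genes were taken as a named list from the 19339 genes measured in RNA of sorted small intestinal T cells, a preparation in which their transcripts may come from the T cells or from traces of other cells. RNA-seq was performed on TCRαβ+CD8αα+ intraepithelial lymphocytes (IELs) of C57BL/6 mice, sorted as CD45+CD4-TCRβ+CD8α+CD8β- cells. All mice carried loxP-flanked Kdm6b alleles (Kdm6bfl/fl), and Kdm6b encodes a demethylase of histone H3 lysine 27. The control group was Kdm6bfl/fl alone (libraries Con1 and Con3), and the Kdm6b-deficient group was Kdm6bfl/fl-CD4Cre (KO1 and KO3), in which Cre under CD4 control is active from the late double-negative stage of thymocytes on. Each library held pooled RNA of 3 mice of 1 genotype, and the ages of these mice were not given in the sources used here.

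Macrophages and dendritic cells lie in the lamina propria just under the gut epithelium, and some dendritic cells reach between epithelial cells. Macrophages depend on the receptor encoded by Csf1r, take up dying cells and secrete complement C1q, while dendritic cells carry the integrin encoded by Itgax and present antigen to T cells. Lysozyme, cathepsin S, cystatin C and the CD68 protein belong to the secretory and lysosomal equipment of phagocytes. Several of these genes are not exclusive to myeloid cells: NK cells and innate-like T cells can use the low-affinity Fc receptor encoded by Fcgr3 together with the adaptor encoded by Fcer1g, activated T cells can carry the integrin encoded by Itgax, and Cst3 is active in most tissues.

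The sort was checked first. Cd8a was at 280 to 463 FPKM (fragments scaled to the kilobases of a transcript and to the mapped fragments of its library), Cd8b1 at 0 to 1.64 FPKM and Cd4 at 3.17 to 30.6 FPKM, the latter higher in Con1 and KO1 than in Con3 and KO3. Kdm6b itself was at 16.5 FPKM in Con1, 16.0 in Con3, 18.2 in KO1 and 11.1 in KO3. KO1 was thus above both controls, so the transcript level does not check its label, and the libraries are called those labelled KO. Depth was estimated at 11.8, 13.9, 14.2 and 14.2 fragments per FPKM and kilobase in KO3, Con3, Con1 and KO1, from the spacing of the lowest values, a quantity that scales with the mapped fragments of a library. Summed FPKM of 12 T cell genes was 13468 in Con1, 10287 in Con3, 10012 in KO1 and 7217 in KO3. Summed FPKM of 24 epithelial genes was 3053 and 8354 in the controls and 11795 and 12916 in the libraries labelled KO, and that of 10 Paneth cell genes was 3006 and 24447 against 12631 and 43442, with none of these markers at 0 in all libraries. The sums of T cell and epithelial genes thus differed between libraries. Gene by gene, 7 of 12 T cell genes lay lower and 4 of 24 epithelial genes higher in both libraries labelled KO (18.6% of all genes lay lower and 18.4% higher, the latter no less than the epithelial share), and the geometric mean of FPKM + 1 over the epithelial list was 2.78, 2.60 and 5.89 times that of Con1 in Con3, KO1 and KO3, so that by this measure Con3 and KO1 were alike. Their part in the comparisons of myeloid genes was not tested, and in bulk RNA fewer cells of a type and less RNA per cell cannot be told apart.

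All 9 genes were above 1 FPKM in every library. Their positions below are whole genes, exons and introns, in GRCm38.p6. On the mean over the 4 libraries, which FPKM allows to be compared between genes, the order was Lyz2 at 410 FPKM, Cst3 at 246, Ctss at 146, Fcgr3 at 142, C1qa at 101, Cd68 at 31.1, Csf1r at 26.3, Adgre1 at 12.1 and Itgax at 8.21. The ranges over libraries left only 3 gaps between neighbours in this order. Cst3 lay above Ctss, Fcgr3 above C1qa, and C1qa above Cd68 in every pair of libraries, while the other neighbours overlapped. The lowest value, that of Itgax in Con3, corresponded to an estimated 273 fragments and thus to a counting error of 6.05%. Counting error was thus of the size of the narrowest gaps between libraries and small beside the wide ones.

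**Figure D1:**
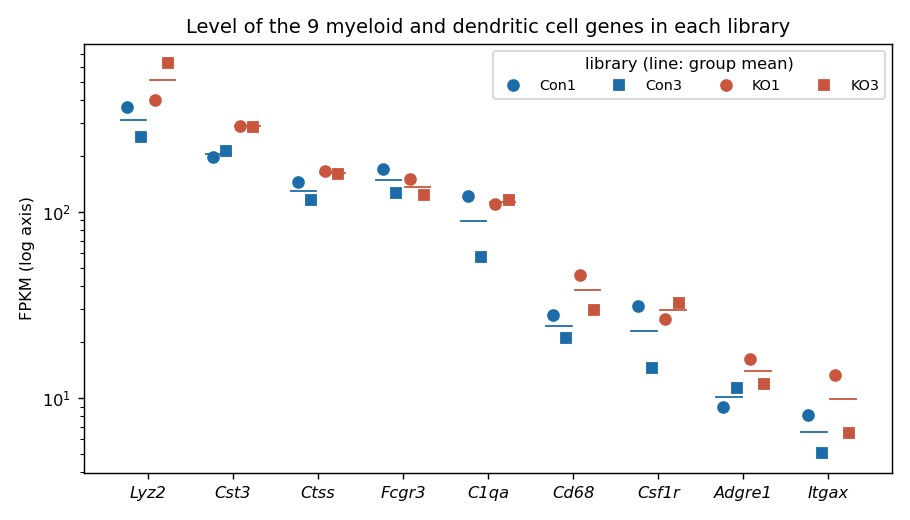
FPKM of the 9 genes (log axis) in each library, with circles for replicate 1 and squares for replicate 3, blue for control and red for the libraries labelled KO, and a line at each group's mean. Lyz2, Cst3, Ctss, Cd68 and Adgre1 lie higher in both libraries labelled KO than in both controls, and Con3 holds the lowest value of 6 genes.

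Whether the libraries labelled KO differed from the controls in these genes was tested with limma on log2(FPKM + 1) over 12009 genes, those that reached 1 FPKM in 2 or more libraries. No member passed an adjusted p of 0.05 (Benjamini-Hochberg), and adjusted p in limma ranged from 0.755 to 0.913. Over all genes tested 0% passed, with a smallest adjusted p of 0.193, while 1 member (Cst3) and 642 genes were under an unadjusted p of 0.05. The log2 fold change, libraries labelled KO minus control, was positive for 8 members and ranged from -0.11 to 0.71, with a median of 0.44 against 0.00 over all genes. Without Con3 the median was 0.18 and 6 members were positive, and without Con1 it was 0.77. No member exceeded a log2 fold change of 1 or fell below -1, which 6.2% and 0.441% of all genes did. Both libraries labelled KO lay above both controls for 5 of 9 members and below both for 0, against 18.4% and 18.6% of all genes, and 4 members overlapped. These 2 shares of all genes are the background for the counts without overlap of every list below. The lists hold some of the 9 genes (Csf1r, Adgre1 and C1qa are in the macrophage list, Cst3, Ctss and Cd68 in the lysosomal list) and share genes with each other, so their counts are not independent. When libraries were scaled instead to the geometric mean of Cd3d, Cd3e, Cd3g and Ptprc, the median of all genes moved to 0.36. That of the members moved to 0.82, a difference of 0.47. All 9 members then lay higher in both libraries labelled KO, as did 37.2% of all genes. A single factor per library shifts all genes nearly alike, so the difference from the median of all genes was bound to stay near 0.44.

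**Figure D2:**
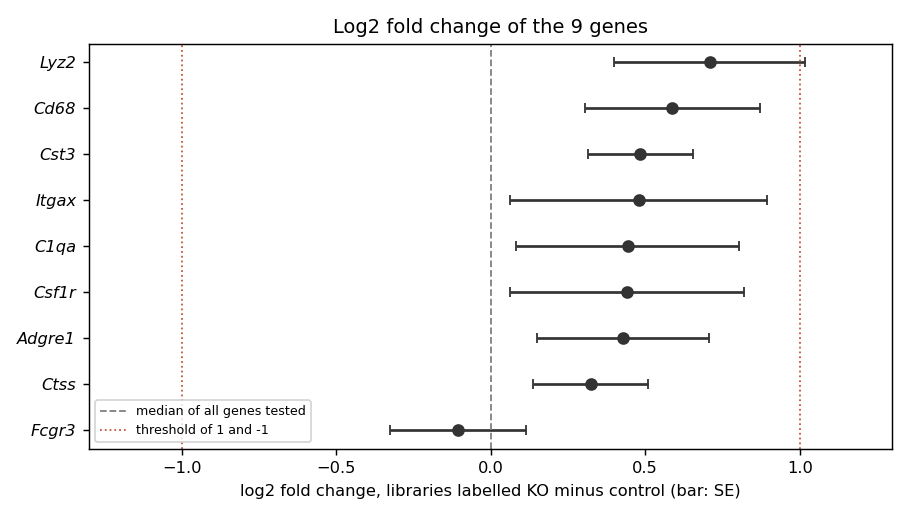
Log2 fold change of each gene (libraries labelled KO minus control, on log2(FPKM + 1)) with its standard error from limma. The dashed line is the median of all genes tested and dotted lines mark 1 and -1. Only the value of Fcgr3, -0.11, is below 0, and it is 0.29 when libraries are scaled to T cell genes, where the median of all genes is 0.36.

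C1qa (Entrez 12259, chr4:136895916-136898844), the A chain of the C1q molecule that starts the classical complement pathway, was at 121 FPKM in Con1, 57.0 in Con3, 111 in KO1 and 116 in KO3. Csf1r (Entrez 12978, chr18:61105572-61131139), the receptor for the macrophage growth factors CSF1 and IL-34, was at 31.3, 14.6, 26.7 and 32.5 FPKM in the same order. For both genes Con1, KO1 and KO3 lay close together and Con3 stood well below them, so the groups overlapped. The log2 fold changes were 0.44 (SE 0.36) for C1qa and 0.44 (SE 0.38) for Csf1r, and without Con3 they were -0.092 and -0.086.

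The profiles of the pair were alike although their levels differed. Relative to Con1, C1qa was 0.472, 0.917 and 0.959 in Con3, KO1 and KO3, and Csf1r was 0.465, 0.852 and 1.04. The ratio of C1qa to Csf1r was 3.85, 3.91, 4.15 and 3.56 over the 4 libraries, a narrow range beside the 2.12-fold and 2.23-fold ranges of the genes themselves. Likeness was measured as the Euclidean distance between centred log2(FPKM + 1) values over the 4 libraries, among 8699 genes with a mean of at least 5 FPKM. By this measure Csf1r and C1qa were each other's nearest gene, at a distance of 0.15, followed by Cfp (properdin, a complement regulator made by myeloid cells) and Sirt5 for Csf1r, and by Pygo2 and AI837181 for C1qa.

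The other C1q chains, C1qb and C1qc, assemble with C1qa into the same molecule. C1qb was at 128, 85.4, 158 and 157 FPKM and C1qc at 94.4, 36.4, 105 and 105. Both were lowest in Con3, like C1qa, and both lay higher in the libraries labelled KO than in the controls. Their log2 fold changes were 0.59 (SE 0.24) and 0.83 (SE 0.44), with adjusted p in limma of 0.755 each. C1qa over C1qb was 0.946, 0.667, 0.703 and 0.737 in Con1, Con3, KO1 and KO3, and C1qc over C1qa 0.781, 0.638, 0.944 and 0.909. Both ratios thus varied more than that of C1qa to Csf1r. C1r and C1s, the proteases of the complex, were near the floor, with C1ra at 0.49 to 1.22 FPKM and C1s1 at 0.03 to 0.43. The C1 inhibitor gene Serping1 was at 0.16 to 1.64 FPKM. Of 8 genes of the complement C1 list 5 were tested, 3 lay higher without overlap and 0 lower, and the median was 0.44. The third of these, beside C1qb and C1qc, was C1qbp, a mitochondrial protein that also binds C1q, at 125, 146, 149 and 183 FPKM and thus lowest in Con1. The highest of the list was Calr, the chaperone calreticulin, at 255 to 323 FPKM, whose groups overlapped.

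The ligands and regulators of the CSF1 receptor gave a mixed picture. Csf1 was at 0.24, 0.32, 0.61 and 0.93 FPKM, too low to be tested, and Il34 at 4.77, 4.85, 2.59 and 3.45, lower in both libraries labelled KO. Spi1, which encodes the myeloid and B cell factor PU.1, was at 20.8, 11.1, 40.2 and 27.4 FPKM. Spi1 was higher in both libraries labelled KO and its log2 fold change of 1.07 (SE 0.36) exceeded 1, with an adjusted p of 0.755 in limma. Of the 12 genes of this list, 10 were tested, 4 lay higher and 2 lower without overlap (18.4% and 18.6% of all genes), and the median was 0.27. Inpp5d, a lipid phosphatase of haematopoietic cells and the highest of the list, was among the lower ones at 76.1, 57.7, 48.5 and 46.3 FPKM.

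Adgre1 (Entrez 13733, chr17:57358581-57483529) encodes F4/80, the surface protein that defines most mouse macrophages. It was at 8.96 FPKM in Con1, 11.3 in Con3, 16.3 in KO1 and 11.8 in KO3. Unlike C1qa and Csf1r it was lowest in Con1, and the libraries labelled KO lay above the controls, by a narrow margin between KO3 and Con3. This gave a log2 fold change of 0.43 (SE 0.28), with an adjusted p of 0.761 in limma, and it was 0.21 without KO1, 0.28 without Con1, 0.58 without Con3 and 0.64 without KO3. Its nearest genes were Eif4a1 (a translation initiation factor), H3c15 (a histone gene) and Pkn2 (a kinase), at distances of 0.06 to 0.10, and none of the macrophage list.

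Across that list, 19 of 20 macrophage genes were measured and 17 tested. Of the 17, 7 lay higher without overlap and 0 lower (18.4% and 18.6% of all genes), with a median of 0.44, and 15 of the 19 had their lowest value in Con3. The summed FPKM of the list was 469 in Con1 and 258 in Con3 against 519 in KO1 and 511 in KO3, and the 3 C1q chains made up most of it. Cd163 was at 0 in Con3 and at most 0.61 FPKM elsewhere, and Siglec1, a marker of some other macrophages, was at 0.19 to 0.30 FPKM.

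**Figure D3:**
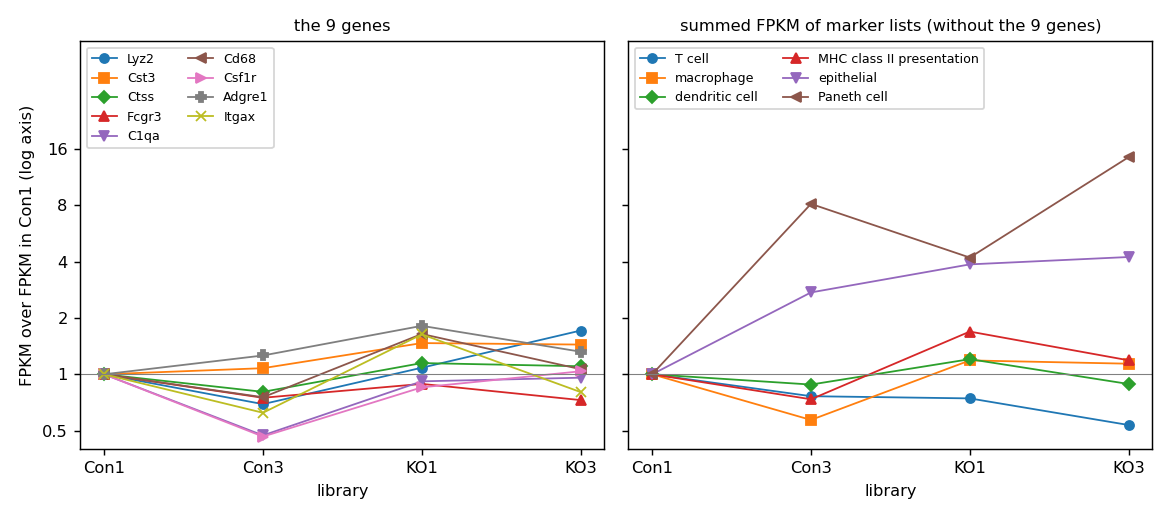
Left, FPKM of each of the 9 genes over its FPKM in Con1 (log axis) across the 4 libraries. Right, the same for summed FPKM of lists of marker genes with the 9 genes left out. C1qa and Csf1r share their low point at Con3 with the macrophage list (0.570 of Con1), the T cell list is at 0.536 in KO3, and the epithelial and Paneth cell lists reach 4.23 and 14.5 times Con1 in KO3.

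Cd68 (Entrez 12514, chr11:69664213-69666170) encodes a glycoprotein of lysosomes and endosomes that is abundant in macrophages. It was at 27.9 FPKM in Con1, 21.1 in Con3, 45.9 in KO1 and 29.7 in KO3. KO1 stood above the other libraries, and KO3 exceeded Con1 only slightly. The group means differed by 0.59 (SE 0.28) on the log2 scale, with an adjusted p of 0.755 in limma. The difference was 0.28 without KO1, 0.39 without Con3 and 0.89 without KO3.

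Itgax (Entrez 16411, chr7:128129526-128150657) encodes the αX chain of the integrin CD11c/CD18, the usual surface marker of dendritic cells. It had 8.09 FPKM in Con1, 5.04 in Con3, 13.2 in KO1 and 6.50 in KO3, the widest range of the 9 genes at 2.62-fold. KO1 was highest, KO3 lay between the controls, and the groups overlapped. The log2 fold change of 0.48 (SE 0.42) rested on KO1, without which it was 0.02, and it was 0.18 without Con3, 0.77 without Con1 and 0.94 without KO3. Among its 3 nearest genes were Il1b, the gene of the inflammatory cytokine interleukin-1β, at 75.9, 52.8, 133 and 70.1 FPKM and a distance of 0.14, beside Pcbd2 and Raly. The 3 nearest of Cd68 were Uri1, Smarcc1 and Xylt2, none of them a lysosomal gene.

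Itgb2, the β2 chain that pairs with the product of Itgax and with several other α chains, was at 154, 116, 126 and 82.0 FPKM. It was highest in Con1 and lowest in KO3, an order unlike that of Itgax, and exceeded Itgax 19.1, 23.1, 9.50 and 12.6 times. Among the α chains, Itgae, the CD103 chain by which IELs bind E-cadherin and which pairs with β7, was at 383, 301, 227 and 245 FPKM, and Itgb7, the β7 chain, at 179, 140, 144 and 84.4. Itgam, the CD11b chain of macrophages, was at 5.48 to 8.40 FPKM, of the order of Itgax, and Itgad, a further partner of β2, at 4.75 to 10.4. In the list of 10 leukocyte integrins and their partners, 1 gene lay higher and 3 lower without overlap, and the median was -0.40, which made Itgax (0.48) and Itgam (0.31) the 2 genes with a positive value.

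The dendritic cell list differed in level from gene to gene. Of 18 genes 17 were measured and 14 tested, with 5 higher and 1 lower without overlap and a median of 0.46. Irf8, a transcription factor of dendritic cells that lymphocytes also express, was the highest at 112, 101, 107 and 103 FPKM and made up much of the list's sum. Batf3, the 1 gene lower without overlap (log2 fold change -0.59), and Ccr7 followed at 12.1 to 26.2 and 12.2 to 34.6 FPKM. Of other genes of the list, chosen after their values were seen, Naaa was at 5.76 to 8.26 FPKM, Cd209a at 2.69 to 9.62, Zbtb46 at 1.48 to 2.44 FPKM, Flt3 at 0.32 to 2.43 and Clec9a at 0.07 to 0.61. Sirpa, a receptor of macrophages and of a dendritic cell subset, was at 4.32, 3.78, 9.75 and 10.7 FPKM and its log2 fold change of 1.15 (SE 0.27) was the only one of the list above 1, with an adjusted p of 0.755 in limma.

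Fcgr3 (Entrez 14131, chr1:171051169-171065915) encodes FcγRIII (CD16), a low-affinity receptor for IgG that reaches the surface with the signalling chain encoded by Fcer1g. It was at 169 FPKM in Con1, 127 in Con3, 150 in KO1 and 123 in KO3. Con1 was highest and KO3 lowest, the groups overlapped, and the 1.37-fold range was the narrowest of the 9 genes. A log2 fold change of -0.11 (SE 0.22) resulted, with an adjusted p of 0.913 in limma. Its sign was not stable, since it was 0.10 without Con1 and 0.04 without KO3. When libraries were scaled to T cell genes it was 0.29, which was below the median of all genes, 0.36, as the unscaled value was below 0.00.

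The adaptors were far more abundant than the receptor. Fcer1g was at 1785, 1367, 1357 and 852 FPKM and Tyrobp, the adaptor DAP12 of NK and myeloid receptors, at 1454, 920, 1029 and 696. Both were highest in Con1 and lowest in KO3, as 11 of the 12 T cell genes were in Con1 and all 12 in KO3. Fcer1g exceeded Fcgr3 10.6, 10.8, 9.04 and 6.92 times. Fcgr3 stood to Cd3e, a chain of the T cell receptor complex, as 0.334, 0.360, 0.421 and 0.405 to 1. Cd3e was at 0.601 of Con1 in KO3, while Cd3g, Cd3d and Cd247 were at 0.581, 0.495 and 0.460. A ratio of Fcgr3 to any of these would thus have risen more from Con1 to KO3. Fcgr3 over Csf1r was 5.39, 8.69, 5.62 and 3.78, with its highest value in Con3. In Con3 Fcgr3 was 0.749 of its value in Con1, near the 0.764 of the summed T cell genes, where C1qa and Csf1r were 0.472 and 0.465. In KO1 and KO3 Fcgr3 was 0.888 and 0.728, above the 0.743 of the T cell sum in KO1 and the 0.536 in KO3.

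The other Fcγ receptors were low. Fcgr1, the high-affinity receptor of macrophages, was at 0.61 to 1.65 FPKM and Fcgr4 at 5.62 to 11.1. Fcgr2b, the inhibitory receptor of B cells and myeloid cells, was at 5.66, 3.93, 13.2 and 11.0 FPKM. Fcgr2b was higher in both libraries labelled KO, with a log2 fold change of 1.19 (SE 0.30) and an adjusted p of 0.755 in limma. Fcgrt, the neonatal Fc receptor that epithelium and phagocytes use, was the other gene of this list above 1, at 5.07, 19.6, 16.1 and 39.5 FPKM. Its order of libraries was that of the Paneth cell sum and of the geometric mean over the epithelial list, but not of the epithelial sum. Of 11 genes 10 were tested, 4 lay higher and 1 lower without overlap, and the median was 0.13.

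Fcgr3 and Fcgr2b are paralogs on the same chromosome, and the stretch that they share most closely is shown because fragments from it cannot be assigned with certainty. Within coding bases 263 to 502 of Fcgr3 (GRCm38, chr1:171054056-171057792, minus strand) and 278 to 517 of Fcgr2b (chr1:170966563-170968081, minus strand), 240 bases hold 1 difference, in capitals.
Fcgr3: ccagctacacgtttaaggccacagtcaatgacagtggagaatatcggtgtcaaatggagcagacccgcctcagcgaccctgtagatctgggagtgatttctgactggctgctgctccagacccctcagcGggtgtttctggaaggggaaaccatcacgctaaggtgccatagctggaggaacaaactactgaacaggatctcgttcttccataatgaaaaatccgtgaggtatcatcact
Fcgr2b: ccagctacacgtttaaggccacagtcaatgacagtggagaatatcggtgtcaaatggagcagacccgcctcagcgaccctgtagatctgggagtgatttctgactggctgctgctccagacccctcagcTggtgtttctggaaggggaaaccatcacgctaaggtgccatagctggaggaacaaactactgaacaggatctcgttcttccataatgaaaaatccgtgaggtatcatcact
Over the 784 coding bases that could be aligned, of 801 in Fcgr3 and 1020 in Fcgr2b, identity was 78.1%, and 166 of 1298 50-base windows of the Fcgr3 transcript (12.8%) also occurred in Fcgr2b, against 0 shared with Fcgr4. RSEM divides such fragments between genes by estimate. Since Fcgr3 exceeded Fcgr2b 29.9, 32.2, 11.4 and 11.2 times, fragments misassigned between them would bear mostly on the lower gene, Fcgr2b.

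Lyz2 (Entrez 17105, chr10:117277541-117282272) encodes the lysozyme of macrophages and neutrophils, an enzyme that cuts bacterial cell walls. It was the highest of the 9 genes, at 365 FPKM in Con1, 253 in Con3, 396 in KO1 and 626 in KO3. KO3 stood well above the rest and KO1 exceeded Con1 slightly, so the groups did not overlap. The log2 fold change of 0.71 (SE 0.31) was the largest of the 9, with an adjusted p of 0.755 in limma, and it was 0.38 without KO3, 0.45 without Con3, 0.97 without Con1 and 1.04 without KO1, the last above 1. Its nearest genes were Ddi2, Pde9a and Nadsyn1, at distances of 0.17 to 0.19.

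The neighbouring gene Lyz1 encodes the lysozyme of Paneth cells, the antimicrobial secretory cells of the intestinal crypt, and its coding sequence is nearly the same. Coding bases 133 to 372 of both genes (GRCm38, Lyz2 at chr10:117278651-117282110 and Lyz1 at chr10:117289127-117292706, minus strand) are shown because they set how far the 2 can be told apart. The 6 differing bases are in capitals.
Lyz2: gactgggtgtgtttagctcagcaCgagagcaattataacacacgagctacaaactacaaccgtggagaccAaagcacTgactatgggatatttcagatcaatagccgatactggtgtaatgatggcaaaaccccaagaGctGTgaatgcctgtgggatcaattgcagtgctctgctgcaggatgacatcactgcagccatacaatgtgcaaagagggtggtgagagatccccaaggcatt
Lyz1: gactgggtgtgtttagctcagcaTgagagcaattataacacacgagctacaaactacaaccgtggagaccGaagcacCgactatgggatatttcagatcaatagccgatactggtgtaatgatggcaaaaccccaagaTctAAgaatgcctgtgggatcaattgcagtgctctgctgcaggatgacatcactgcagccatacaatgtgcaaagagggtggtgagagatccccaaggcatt
Over the 444 coding bases 422 were identical (95.0%), while 195 of 1267 50-base windows of the whole Lyz2 transcript (15.4%) also occurred in Lyz1. The read length of the libraries is not known here, so the share of ambiguous fragments may differ from this.

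Lyz1 was at 494 FPKM in Con1, 3153 in Con3, 1600 in KO1 and 5197 in KO3. Lyz1 was 6.38, 3.24 and 10.5 times its value in Con1 in Con3, KO1 and KO3. The Paneth cell gene Defa24, an antimicrobial defensin, had the same order of libraries, at 1311, 10963, 5843 and 19807 FPKM. Lyz2 was 0.693, 1.08 and 1.71 times its value in Con1, and its share of the lysozyme FPKM was 42.5%, 7.43%, 19.8% and 10.7%. In Con3 Lyz2 was thus at its lowest while Lyz1 was above both replicates numbered 1, whereas in KO3 both were at their highest. Lyz2 was the lower of the pair in every library, so fragments misassigned between them would bear mostly on Lyz2. How many Lyz2 fragments came from Lyz1 was not tested.

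**Figure D4:**
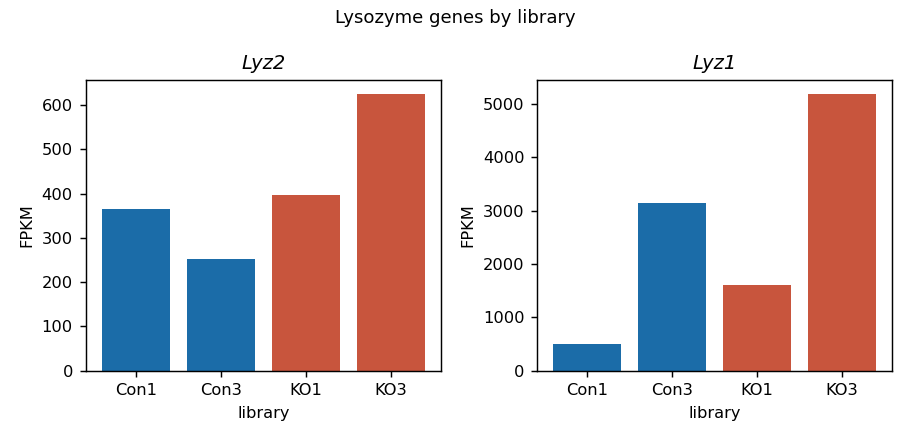
FPKM of Lyz2 (left) and Lyz1 (right) in the 4 libraries, on separate linear axes from 0. Lyz2 spans 253 to 626 FPKM and Lyz1 494 to 5197, and Con3 holds the lowest bar of Lyz2 and the second-highest of Lyz1.

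Neutrophils, which share Lyz2 with macrophages, are marked by genes of the granulocyte, monocyte and mast cell list. Of its 18 genes 15 were measured and 9 tested, with 5 higher and 0 lower without overlap (18.4% and 18.6% of all genes), a median of 0.85 and 0 under an adjusted p of 0.05 in limma. Most defining genes were near the floor, and 9 of the 15 were at 0 in at least 1 library. S100a8, a calcium-binding protein of neutrophils, was at 0, 0, 2.89 and 1.77 FPKM, Retnlg, a resistin-like protein of neutrophils, at 0.61, 3.54, 10.8 and 12.0, and the mast cell protease gene Mcpt1 at 1.03, 0, 1.58 and 4.52. These 3, the only genes of the list above a log2 fold change of 1, were each higher in both libraries labelled KO, as Lyz2 was, with an adjusted p of 0.755 in limma for each. The list's sum was led by Plac8, which lymphocytes also express, at 257, 426, 491 and 724 FPKM, by Il1b, and by Ly6c2, at 30.7, 20.3, 36.5 and 8.36. What part neutrophil RNA had in Lyz2 was not tested.

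In the B lineage list 5 of 8 genes were tested, with 1 higher and 0 lower without overlap. Cd79b, a chain of the B cell receptor, was at 28.4 to 33.5 FPKM, Jchain at 16.7, 0.94, 48.8 and 0.13, and Blnk, an adaptor of B cells and macrophages, at 2.62, 2.81, 6.30 and 9.15, the only one above a log2 fold change of 1. Of the 9 stroma and endothelium genes measured 4 were tested, with 0 higher and 3 lower without overlap, and the highest, the endothelial adhesion gene Pecam1, was at 9.08 to 12.5 FPKM.

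Cst3 (Entrez 13010, chr2:148871722-148875512) encodes cystatin C, a secreted inhibitor of cysteine cathepsins that dendritic cells make in quantity. It was at 197 FPKM in Con1, 213 in Con3, 290 in KO1 and 284 in KO3. Both groups were tight and did not overlap, with control 205 ± 10.9 and libraries labelled KO 287 ± 3.74 FPKM (mean ± SD, n = 2). The log2 fold change of 0.48 (SE 0.17) had the smallest unadjusted p of the members, with an adjusted p of 0.755 in limma, and stayed between 0.43 and 0.54 when any 1 library was left out. Its nearest genes were Apobec1 (an mRNA editing enzyme), Lyrm2 and Ets2, at distances of 0.03 to 0.05.

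Ctss (Entrez 13040, chr3:95526786-95556405) encodes cathepsin S, the protease that trims the invariant chain from MHC class II in antigen-presenting cells. It was at 144 FPKM in Con1, 116 in Con3, 165 in KO1 and 159 in KO3. Both libraries labelled KO lay above both controls, with KO3 nearest to Con1, and the controls were farther apart than KO1 and KO3. On the log2 scale the difference was 0.32 (SE 0.19), with an adjusted p of 0.755 in limma, and it was 0.17 without Con3. Among its nearest genes were Palm and Nudt9, at distances of 0.05.

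The wider group of cathepsins, cystatins and lysosomal proteins was at high levels, with 23 of 23 genes tested, 13 higher and 3 lower without overlap (18.4% and 18.6% of all genes) and a median of 0.32. The 3 lower ones were Ctsc, Ctsw and Laptm5. Ctsw, the cathepsin of cytotoxic lymphocytes, was at 640, 515, 463 and 334 FPKM, Ctsc, which activates granzymes, at 150, 129, 126 and 100, and Laptm5, a lysosomal protein of leukocytes, at 807, 600, 572 and 434. Each was highest in Con1 and lowest in KO3. Cst7, the cystatin of cytotoxic lymphocytes and myeloid cells, was at 239, 174, 180 and 125 FPKM, and the broadly used Cstb was at 121 to 140. Above a log2 fold change of 1 were Cd63, a tetraspanin of lysosomes, at 32.8, 66.9, 73.3 and 149 FPKM and Ifi30, a thiol reductase of antigen processing, at 12.8, 25.1, 38.5 and 39.1.

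In the list of MHC class II presentation genes, 10 of 10 lay higher in both libraries labelled KO. The median was 0.73, with 0 under an adjusted p of 0.05 in limma. Beside class II genes and Cd74 the list holds Ciita, Cd80 and Cd86. Cd74, the invariant chain, was at 1308, 939, 2183 and 1637 FPKM and H2-Ab1 at 698, 495, 1229 and 741. H2-Eb1 was at 181, 153, 265 and 218 FPKM, while H2-DMb2, at 0, 3.48, 10.5 and 3.90, was the only one above 1. For 9 of the 10 genes KO1 was highest, as it was for Cst3, Ctss, Cd68, Adgre1 and Itgax. Of the 24 epithelial genes 22 were highest in KO3.

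**Figure D5:**
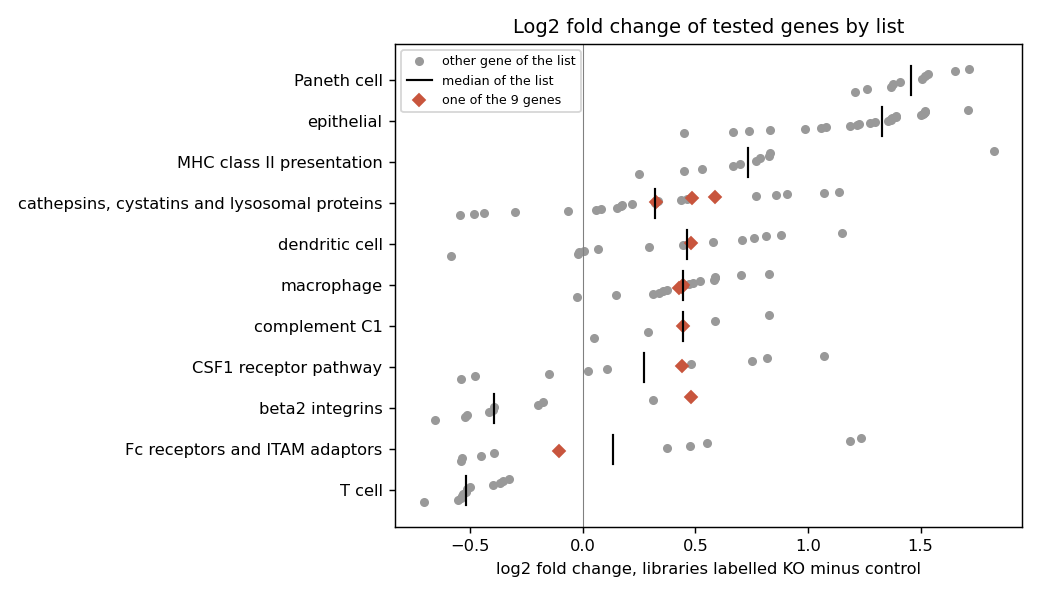
Log2 fold change (libraries labelled KO minus control, on log2(FPKM + 1)) of the tested genes of each list, with the 9 genes as red diamonds and the median of each list as a black bar. T cell genes lie below 0 with a median of -0.52, macrophage and dendritic cell genes centre at 0.44 and 0.46, and epithelial and Paneth cell genes at 1.33 and 1.46. On values scaled to T cell genes all of these would sit higher, and Fcgr3 would be above 0.

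The 9 profiles were last set against the summed profiles of the marker lists, each without the 9 genes, by Euclidean distance. Values were centred log2 FPKM with nothing added, so these distances are not on the scale of those to the nearest genes. C1qa, Csf1r, Cd68 and Lyz2 were nearest to the macrophage list, at 0.27, 0.36, 0.49 and 0.55. Fcgr3, Ctss, Adgre1, Cst3 and Itgax were nearest to the dendritic cell list, at 0.32, 0.34, 0.49, 0.50 and 0.67, a list whose sum is carried by Irf8 and varied little. For 2 genes the lists were nearly tied, Cd68 being at 0.51 from the dendritic cell list and Itgax at 0.69 from the macrophage list. The T cell list was second nearest only for Fcgr3, at 0.39, and lay at 0.85 to 1.43 from the other members. Every member was farther from the epithelial list, at 1.22 to 1.99, and from the Paneth cell list, at 2.61 to 3.41, than from either myeloid list. These distances rest on 4 libraries and on sums led by few genes, and are a description of which transcripts varied alike. The files held no measure per cell, so whether a transcript came from the IELs or from other cells in the sort was not tested for any of the 9 genes.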

How the data were processed

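Per the labels and the study's methods, RNA of sorted TCRαβ+CD8αα+ IELs was sequenced with pools of 3 mice per library. The authors used HISAT and Bowtie2 to map reads to mm10, and RSEM for quantification. The submitters' processing notes name Bowtie2 2.2.5, RSEM 1.2.8 and GRCm38.p5. The deposited values are FPKM of 19339 genes, in 1 file per library (2 control, 2 Kdm6b-deficient). Entrez identifiers were matched to RefSeq symbols of GRCm38.p6 (18467 matched). Strand and read length were not given in the sources used here. p-values measure the spread between pools.

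Tests here used log2(FPKM + 1), unscaled, in limma 3.58.1 under R 4.3.3 (a linear fit moderated with a mean trend, prior degrees of freedom 3.52). The p-values of all 12009 genes tested were adjusted by Benjamini-Hochberg. The model was tested on simulated data. An exact permutation test of 2 against 2 libraries cannot go below a two-sided p of 0.333 and was not used. Depth was estimated from the smallest step of FPKM times transcript length less 140 bases, over GENCODE vM21 genes of 1 transcript. Tables were handled with pandas 2.3.3. Sequences are from GENCODE vM21 transcripts. The genes named are the 9 members, their partners and family, the 3 highest of a list and those above a log2 fold change of 1 or below -1 (of the T cell, epithelial and Paneth cell lists sums are given instead, and of the stroma list the highest gene), the 3 nearest genes of each member (1 is not reported here) and Kdm6b, and further list genes were named after their values were seen. The members and lists were chosen with earlier results of these data known. Alternatives were other pseudocounts, filters and scalings, a replicate block, no trend, and leaving out each library.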

Additional observations from a re-analysis of the deposited data

How the results depend on the processing

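The counts, the median of the members and the log2 fold change of each member were recomputed under 13 alternatives, and the ratios, distances and values of other genes and lists were not. No member passed an adjusted p of 0.05 in limma under any of them. Lyz2, Cst3, Itgax, Cd68, Adgre1 and Ctss kept a positive log2 fold change under all 13. Fcgr3 turned to 0.29 with scaling to Cd3 genes and Ptprc, 0.10 without Con1 and 0.04 without KO3, and stood at -0.31 without Con3. Csf1r and C1qa turned to -0.086 and -0.092 without Con3 and reached 0.97 and 0.98 without Con1. With scaling to Cd3 genes and Ptprc the median of the members was 0.82 (0.36 over all genes), 9 members did not overlap, 1 member (Lyz2, 1.10) exceeded a log2 fold change of 1, and 1434 genes were past 1 or -1, against 797 in the main comparison. Pseudocounts of 0.1 and 0.01 gave 1381 and 1451 such genes.

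Leaving out 1 library moved the median of the members between 0.18 (without Con3) and 0.77 (without Con1), and the members past 1 or -1 between 0 and 1 (Lyz2, without KO1). Without KO3 6 members lay higher and 0 lower without overlap (32.5% and 30.1% of all genes), and without Con1 8 and 0 (28.9% and 28.6%). Without Con3 5 lay higher and 2 lower (38.1% and 36.5%), and without KO1 6 higher and 1 lower (39.2% and 39.4%). Genes past 1 or -1 numbered 364 without Con1, 1419 without Con3, 1577 without KO1 and 434 without KO3. A lone library was assumed to vary like the other group.

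The libraries share only the numbers 1 and 3, and the deviations of same-numbered libraries correlated at 0.56 across genes. With the replicate block limma called 1019 genes (8.49%) and 0 members, with a smallest adjusted p of 0.051 among the members and 4 members under an unadjusted p of 0.05. Csf1, C1ra, C1s1, Serping1, Flt3, Clec9a, Cd163 and Siglec1 were too low to be tested.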
